A study of Mus musculus with 2 samples.

Results

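The 8 forkhead genes described here encode transcription factors known from the stroma of the kidney and the mesenchyme of the ureter: Foxd1, Foxf1, Foxf2, Foxl1, Foxc1, Foxc2, Foxp1 and Foxp2. They were taken by name from the probe annotation of 2 two-colour arrays, where Foxf1 is written Foxf1a. They account for 11 of the 39429 probes on each array and for 8 of the 21097 genes that could be tested. Each array set 1 Tbx2-GOF sample against 1 control sample of ureters dissected from male NMRI mouse embryos at embryonic day E13.5. Both genotypes carried Hprt(Tbx2/Y), a Tbx2 transgene allele at the X-linked Hprt locus. Tbx2-GOF embryos were Tbx18(cre/+), so that the recombinase cre was made under the control of the Tbx18 locus, and control embryos were Tbx18(+/+). The Tbx2-GOF genotype therefore also differs from the control at 1 Tbx18 allele, and the transgene is switched on only in cells that have expressed Tbx18. The question set by this design was which transcripts change in the ureter when the T-box repressor TBX2 is gained there.

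Forkhead proteins bind DNA through a winged-helix domain, and many of them act in embryonic mesenchyme. FOXD1 marks the progenitors of the renal stroma, the tissue between the developing nephrons. In the ureter, Sonic hedgehog made by the epithelium signals to the surrounding mesenchyme, where FOXF1 acts downstream of the hedgehog receptor and promotes expression of Bmp4, a growth factor gene needed for smooth muscle differentiation. FOXC1 and FOXC2 act in the mesenchyme beside the Wolffian duct and limit where ureteric buds arise. FOXP1 and FOXP2 are repressors that dimerise through a leucine zipper.

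Whether the RNA on array 2 was drawn from other embryos than that on array 1 is not recorded in the labels. A p-value here weighs a gene's mean ratio against differences between these 2 arrays, and those differences may be technical. The spread used is taken more from all genes together (6.36 prior degrees of freedom) than from the gene itself (1 residual). The Tbx2-GOF sample carried the red dye AlexaFluor647 on array 1 and the green dye AlexaFluor555 on array 2, so array and dye orientation cannot be told apart. Between 66.6% and 72.9% of probes were well above background in each channel. All 11 forkhead probes were well above background in both channels of both arrays, and none was saturated or set aside as an outlier. Ratios below are log2 of Tbx2-GOF over control, means carry the SD of the 2 arrays (n = 2), and adjusted p-values are limma's over all 21097 genes. The 95% intervals use limma's spread and are not adjusted for the number of genes. Signals are spot intensities after background correction and normalization within the array, in arbitrary units, and the signals of a gene are set against each other only within 1 probe and 1 array. The ureteric mesenchyme markers Tbx18, Tshz3, Sox9, Bmp4, Ptch1 and Gli1 were all measured above background. In a bulk sample, fewer cells of a type and less RNA per cell cannot be told apart.

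Foxd1 was the forkhead gene that moved most and the 1 of the 8 that passed the test. On array 1 its signal was 18082 in the Tbx2-GOF sample and 30802 in the control sample. On array 2 it was 15453 in Tbx2-GOF and 35356 in control. Tbx2-GOF was lower on both arrays, 1.70-fold on array 1 and 2.29-fold on array 2. The mean log2 ratio was -0.98 ± 0.30, a 1.97-fold decrease (adjusted p = 0.0471; 95% interval -1.33 to -0.63). Of the 21097 genes tested, 82 had a lower mean ratio. By comparison, 59 genes fell across the array, 0.28% of those tested, and 76 rose, 0.36%, which makes 0.64% in either direction. The call was a close one: it was lost in 6 of 12 alternative treatments of the data, at adjusted p from 0.0544 to 0.520. The model that keeps each array as a block was among these (0.143). The ratio itself stayed between -1.01 and -0.97. That range is no independent support, since all treatments use the same 2 arrays and several reuse the very same ratios of the single Foxd1 probe.

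**Figure D1:**
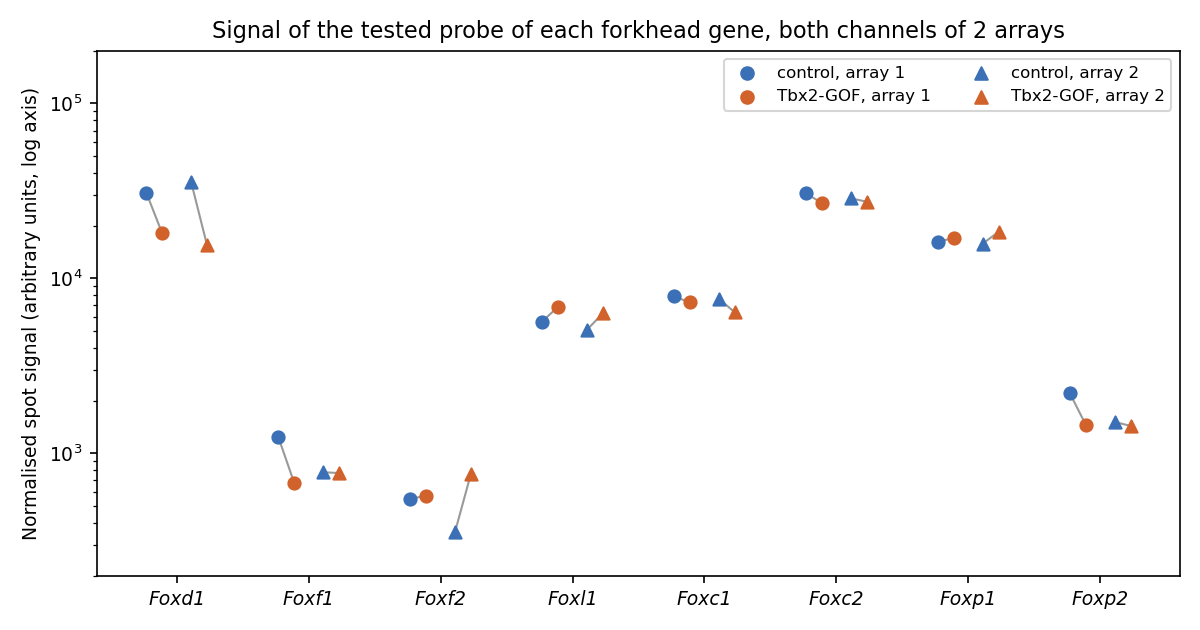
Normalised spot signal (arbitrary units, log axis) of the tested probe of each of the 8 forkhead genes, with control in blue and Tbx2-GOF in orange, circles for array 1 and triangles for array 2, and a line joining the 2 channels of an array. Foxd1 drops on both arrays, from 30802 to 18082 and from 35356 to 15453, Foxf1 and Foxp2 drop mainly on array 1, and Foxf2 is higher on array 2.

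The sequences that carry these measurements are those of the array's probes and, for the called gene, the DNA just before its start. The Foxd1 probe lies on chromosome 13 (mm9, 99126452 to 99126511) and starts at base 2252 of the RefSeq transcript the array was designed on. The first 30 bases of the Foxd1 and Foxf2 probes, the last 30 bases of the Foxl1 probe, and the Foxf1 probe in full are shown because the text below turns on how these 4 probes behaved. Capitals mark a run of 17 bases that the Foxl1 probe shares with the probe of another transcript, A430054B03.
Foxd1: gaaataagtcgaaatttaccatttcctatt
Foxf1: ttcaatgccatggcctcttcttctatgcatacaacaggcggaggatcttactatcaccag
Foxf2: ttttatgatcttcgtatactcacacttcgc
Foxl1: gtatgccgtgcatCACACCTGTAATCTCAG
All 11 forkhead probes were compared with the probes of every other gene on both strands. Runs of 16 or more bases were shared by the Foxl1 probe and by the brightest Foxp1 probe (16 bases, opposite strand, Gm9304), and not by those of Foxd1, Foxf1, Foxf2, Foxc1, Foxc2 or Foxp2.

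TBX2 is a T-box factor, a family that binds DNA at sites built around the letters GGTGTG. The RefSeq promoter table (GRCm38.p6) held entries for 4 of the 8 genes, Foxd1, Foxf2, Foxc1 and Foxp1, with 6 entries in all. GGTGTG was searched on both strands in the 250 bases before each start. It was found in the Foxd1 entry and in none of the other 5. Of all 32851 promoter entries, 16.3% hold it, so 1 match among 6 is close to the general share. The Foxd1 entry lies on the plus strand at chr13:98353995-98354244, and capitals mark the match, read here as its reverse complement, which begins 59 bases before the start.
Foxd1 promoter: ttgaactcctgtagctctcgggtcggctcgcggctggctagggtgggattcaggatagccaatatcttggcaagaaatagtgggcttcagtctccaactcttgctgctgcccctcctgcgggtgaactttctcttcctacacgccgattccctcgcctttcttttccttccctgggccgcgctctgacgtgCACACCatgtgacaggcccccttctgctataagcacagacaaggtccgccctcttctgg
The longer T-box half-site AGGTGTGA (1.12% of all entries), which contains GGTGTG, the forkhead motif TGTTTAC (3.17%) and the GLI motif GGGTGGTC (0.703%) were in none of the 6. A match is a string of letters and not a measured binding site.

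The genes whose ratios on the 2 arrays were nearest to those of Foxd1, by Euclidean distance over 2 arrays, were Ugt2b34 (distance 0.03), Atp1b4 (0.06), Ntn1 (0.07), Fgf7 (0.07) and Serpina1d (0.10). Ntn1, which encodes the guidance cue netrin-1 and is made by renal stromal progenitors, was at -0.93 with -0.72 and -1.15 on the 2 arrays (adjusted p = 0.0528). Fgf7, a mesenchymal growth factor gene, was at -0.95 and passed the test (0.0449). Serpina1d, a plasma protein gene of the liver, was at -1.04 (0.0379), and Ugt2b34, a gene of steroid and drug conjugation, at -0.96 (0.0478). Atp1b4 was at -0.95, with -0.71 and -1.19 on the 2 arrays, and did not pass (adjusted p = 0.0563).

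The hedgehog-responsive genes Foxf1 and Foxf2, encoding closely related factors, did not pass the test, and for both the 2 arrays differed widely. Foxf1 had a signal of 680 in Tbx2-GOF and 1239 in control on array 1. On array 2 the signals were 772 and 780. The lower value in Tbx2-GOF was thus found on array 1 alone, at a log2 ratio of -0.87 against -0.01 on array 2. Its mean was -0.44 ± 0.60 (adjusted p = 0.60; 95% interval -0.91 to 0.03). Its probe lies on chromosome 8 (123610681 to 123610740).

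Foxf2 had a signal of 574 in Tbx2-GOF and 548 in control on array 1. On array 2 it was 764 in Tbx2-GOF and 357 in control. Of the 8 tested probes that of Foxf1 was the second dimmest (mean log2 intensity 9.72) and that of Foxf2 the dimmest (9.08). With the Foxf2 probe, Tbx2-GOF was 2.14-fold higher on array 2 and at the same level, within 1.05-fold, on array 1. The mean log2 ratio was 0.58 ± 0.73 (adjusted p = 0.460; 95% interval 0.04 to 1.12). Foxf2 and Foxd1 were the 2 of 8 genes with an unadjusted p under 0.05, a mark that 9.34% of all genes tested reached.

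Foxl1, a forkhead gene of hedgehog-responsive fibroblasts in the gut and other organs, was the most even of the 8 between arrays. Its signal was 6879 in Tbx2-GOF and 5668 in control on array 1, and 6316 and 5088 on array 2. Tbx2-GOF was higher on both arrays by nearly the same amount, 0.28 and 0.31 on the log2 scale. The mean of 0.30 ± 0.02 did not pass the test (adjusted p = 0.549; 95% interval -0.01 to 0.60). The Foxl1 probe is the one whose 3′ end shares 17 bases with another transcript's probe, and the part of that run in the signal was not tested.

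**Figure D2:**
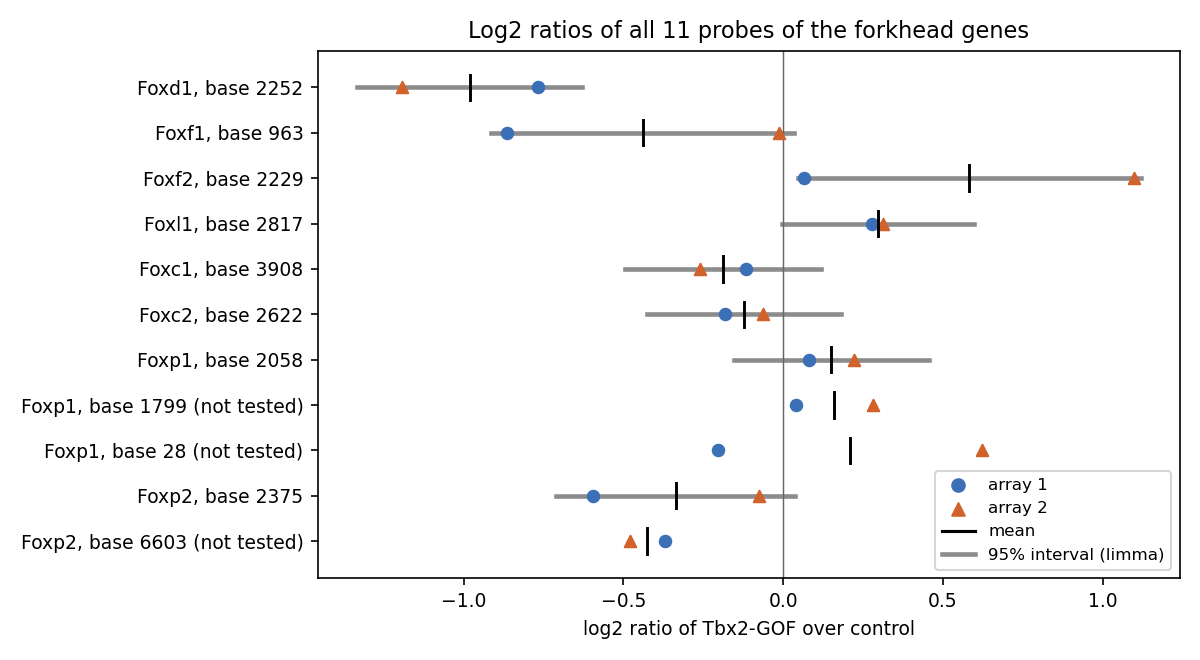
Log2 ratios of Tbx2-GOF over control for all 11 probes of the 8 genes, named by gene and by the base of the transcript at which the probe starts, with array 1 as circles, array 2 as triangles, the mean as a black bar and, for the tested probe of each gene, limma's 95% interval in grey. The intervals, not adjusted for the number of genes, lie wholly below 0 for Foxd1 (-1.33 to -0.63) and wholly above 0 for Foxf2 (0.04 to 1.12). Of these, only Foxd1 passed the test. The Foxf1 and Foxf2 points lie far apart, and the Foxl1 points nearly coincide at 0.28 and 0.31.

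Foxc1 and Foxc2, paralogs of the mesenchyme beside the nephric duct, were close to equal in both genotypes. Foxc1 had a signal of 7285 in Tbx2-GOF and 7890 in control on array 1, and 6393 and 7653 on array 2. Tbx2-GOF was slightly lower on both, with a mean log2 ratio of -0.19 ± 0.10 (adjusted p = 0.862; 95% interval -0.49 to 0.12). Foxc2 had 26969 and 30603 on array 1, and 27435 and 28680 on array 2. It too was slightly lower on both arrays, at -0.12 ± 0.08 (adjusted p = 0.977; 95% interval -0.43 to 0.18). A decrease of the size seen for Foxd1 lies outside both intervals.

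Foxp1 was measured by 3 probes and Foxp2 by 2, all on chromosome 6. The brightest Foxp1 probe, which starts at base 2058 of the transcript (98880084 to 98880143), had a signal of 17062 in Tbx2-GOF and 16145 in control on array 1, and 18452 and 15811 on array 2. Its mean log2 ratio was 0.15 ± 0.10 (adjusted p = 0.934; 95% interval -0.16 to 0.46). A second probe, at base 1799, gave nearly the same mean, 0.16 ± 0.17; its 60 bases span 4338 bases of the genome, so it crosses at least 1 splice junction. The third, at base 28 near the transcript's 5′ end, was dim, with signals between 349 and 537, and its ratios had opposite signs on the 2 arrays, -0.20 and 0.62. The 2 brighter probes thus gave like values, and neither array showed Foxp1 lower by them.

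Foxp2 was lower in Tbx2-GOF with both of its probes on both arrays, without passing the test. The tested probe, at base 2375, also crosses a splice junction (60 bases over 1172 bases of the genome). Its signal was 1460 in Tbx2-GOF and 2206 in control on array 1, and 1435 and 1513 on array 2, a mean of -0.34 ± 0.37 (adjusted p = 0.627; 95% interval -0.71 to 0.04). The dimmer probe, at base 6603, had 1118 and 1444 on array 1 and 1022 and 1427 on array 2. This second probe was the more even of the pair, at -0.42 ± 0.08, and with every probe tested by itself it had an adjusted p of 0.323. The whole of the first probe and the first 30 bases of the second show the different parts of the transcript that were read.
Foxp2, base 2375: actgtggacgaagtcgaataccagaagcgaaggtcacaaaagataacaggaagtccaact
Foxp2, base 6603: cagaaaagaggggtgtacatttttctttag

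As a group, the 8 genes had 1 fall and 0 rises, and 7 did not pass. Over all genes tested, 0.64% passed in either direction. At that share a list as short as this one, or as those below, would seldom hold a call, so a count of 0 says little. The median log2 ratio of the 8 genes was -0.16, with -0.15 on array 1 and -0.04 on array 2, and the median of all genes tested was 0.00. Foxd1 alone was at least 1.5-fold lower on both arrays, as were 0.545% of all genes tested, and none of the 8 was that much higher on both. All 8 had the same sign on both arrays, as did 51.2% of all genes tested. For Foxf1 this did not hold without background correction, under median centring, from the scanner software's own processed signals or in the series value table, where array 2 was at 0.01 to 0.11; Foxp2 had opposite signs under median centring as well. The size of the difference between arrays exceeded the third quartile of all genes (0.35 on the log2 scale, median 0.20) for 4 of the 8: Foxf2 (1.03), Foxf1 (0.85), Foxp2 (0.52) and Foxd1 (0.43).

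**Figure D3:**
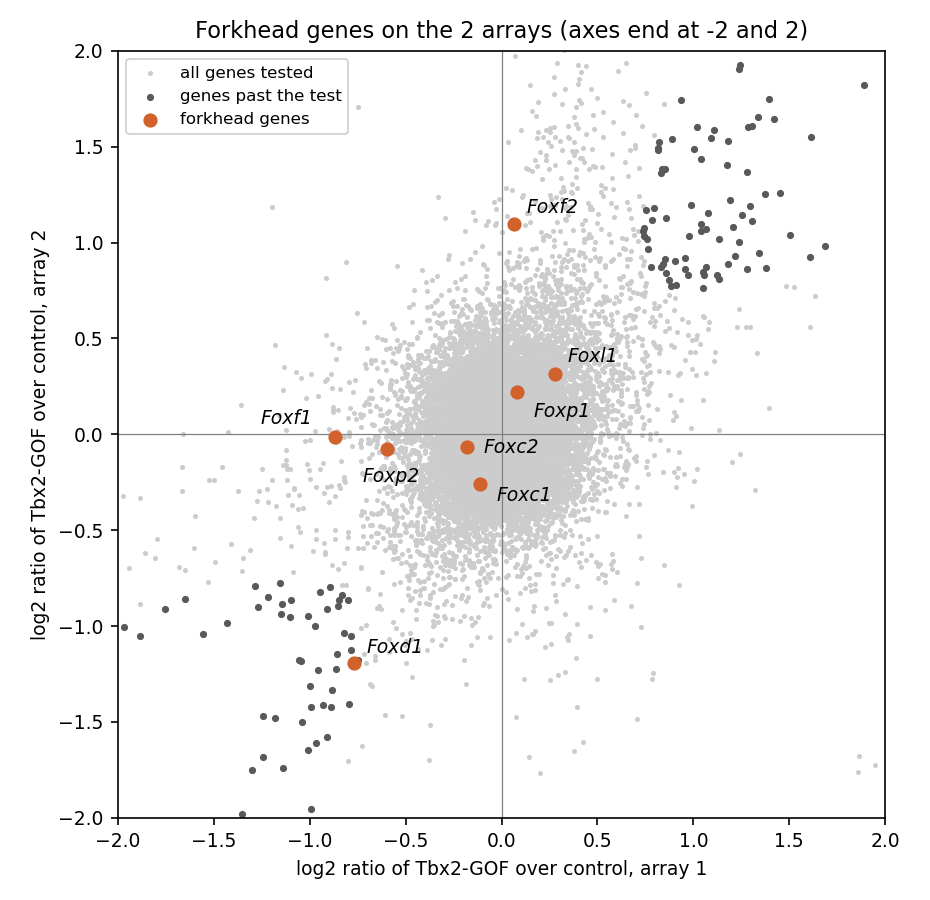
Log2 ratio of Tbx2-GOF over control on array 1 (x axis) and array 2 (y axis) for all 21097 genes tested (light grey), the genes past the test (dark grey) and the 8 forkhead genes (orange, named); points beyond -2 or 2 are outside the plotted range. Foxd1 sits at -0.77 and -1.19 among the genes that fell, Foxf1 and Foxf2 lie along the axes, and the other 5 are nearer the centre.

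Of the 8 genes, 3 lie side by side on chromosome 8, where the Foxf1 and Foxc2 probes are 32.01 kb apart (mm9) and the Foxc2 and Foxl1 probes 11.71 kb. Within this cluster the means were -0.44 for Foxf1, -0.12 for Foxc2 and 0.30 for Foxl1, none past the test. Foxf1 was at -0.87 and -0.01 on the 2 arrays, Foxc2 at -0.18 and -0.06, and Foxl1 at 0.28 and 0.31. On chromosome 13 the Foxf2 and Foxc1 probes are 179.3 kb apart, at 0.58 and -0.19, and Foxd1 lies 67220 kb from Foxc1. Neighbouring forkhead genes thus had means of both signs. Of 7 measured genes near these clusters 0 passed the test (0.64% of all genes tested did), with a median of 0.04 (array medians -0.01 and 0.03). Foxq1, the forkhead gene next to Foxf2, was at 0.20, Mthfsd, a gene of the chromosome 8 cluster, at 0.08, Irf8 at 0.02 and Gmds at -0.11.

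Another 36 forkhead genes were on the array. Of these 24 were tested, and 12, among them Foxa2, Foxb1 and Foxn1, had no probe well above background in 1 genotype on both arrays. None of the 24 passed the test (0.64% of all genes tested did), and their median was 0.04 (array medians 0.02 and 0.07). Foxd3, a factor of neural crest cells, stood highest, at 0.82 with 0.67 and 0.96 on the 2 arrays (adjusted p = 0.0621); it passed in 3 alternative treatments of the data, at adjusted p from 0.0205 to 0.0424 in a range of 0.0205 to 0.520. Foxs1, a factor of perivascular and neural crest derived cells, was at 0.51 with 0.90 and 0.12. Lowest were Foxd2, a close relative of Foxd1, at -0.35 on each array, and Foxd4 at -0.24. Foxd1 and Foxd3, members of 1 subfamily, hence stood at opposite ends of the forkhead genes measured.

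Of 21 genes of the renal stroma, Cxcl12, the chemokine gene of stromal cells, fell, Ecm1, a secreted matrix protein gene, rose, and 19 did not pass. Over all genes tested, 0.64% passed, and this list was chosen with earlier results of these data known. In the model with the array as a block, and with median centring, processed signals or the series value table, 0 genes of this list passed in either direction, and Ecm1 also did not pass with a normexp offset of 0. The list's median was -0.10, with -0.24 on array 1 and 0.01 on array 2, so its sign rests on array 1. Of the 21 means 16 were below 0, as were 10585 of the 21097 means over all genes. Cxcl12 was at -0.97 and -1.0 on the 2 arrays (-0.99 ± 0.02, adjusted p = 0.0319) and Ecm1 at 0.86 and 0.84 (0.85 ± 0.01, 0.0458). Lowest of the others were Ntn1, given above, and Pdgfra, a growth factor receptor gene of mesenchyme, at -0.60. Highest were Aldh1a2, which makes retinoic acid in stromal cells, at 0.71 (0.101) and Pdgfrb, the receptor gene of pericytes and stroma, at 0.38. The stromal factor genes Meis1 and Tcf21 were at -0.30 and -0.07, neither past the test.

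In the hedgehog, FOXF1 and BMP4 axis 0 of 17 measured genes passed the test, beside 0.64% of all genes tested. The median was -0.14, but it came from array 1 (-0.14), since on array 2 it was 0.01. Shh, the ligand, was highest at 0.31, the BMP receptor genes Bmpr1a and Bmpr2 were at -0.28 and 0.07, and Id2, a target of BMP signalling, was at -0.20. Ptch1, the hedgehog receptor and target gene, was at -0.37 on array 1 and 0.04 on array 2, an uneven pair like that of Foxf1. Gli1, another hedgehog target, was at -0.14, and Bmp4 at 0.06. Foxf1, Ptch1 and Gli1 were each lower on array 1 than on array 2.

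Among 21 other transcription factor genes of the ureteric mesenchyme 0 passed (0.64% of all genes tested did). Their median was -0.03, made of -0.23 on array 1 and 0.08 on array 2. The lowest were Prrx1 (-0.70, adjusted p = 0.138) and Twist1 (-0.63, 0.178), which like Foxd1 were farther down on array 2. Tbx18, the locus that carries cre in Tbx2-GOF, was at -0.45 (0.266). Highest was Hand2 at 1.02, with 0.32 and 1.72 on the 2 arrays (0.228). Tbx2 itself was at 0.30 with 0.04 and 0.56 (0.711); whether its probe reads the transgene was not settled here.

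**Figure D4:**
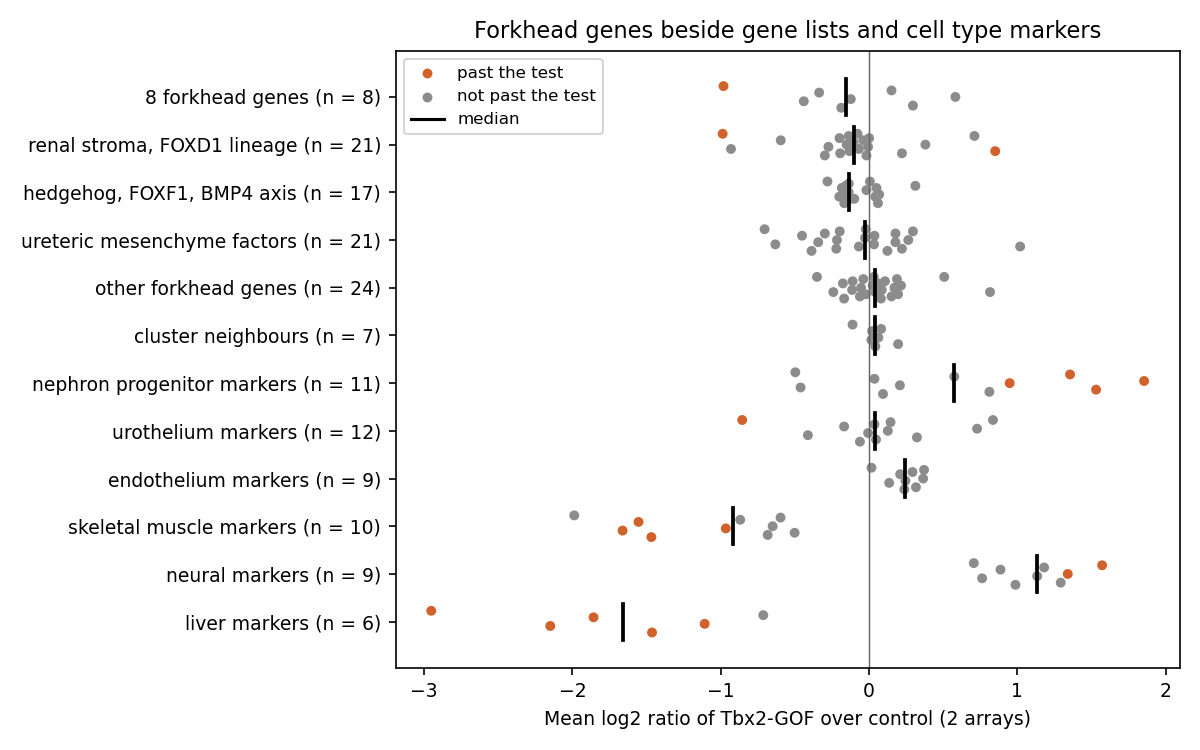
Mean log2 ratio (2 arrays) of each gene in the forkhead group, in 5 gene lists and in 6 sets of cell type markers, with genes past the test in orange, the others in grey and the median as a black bar. The medians of the forkhead and mesenchymal lists lie between -0.16 and 0.04, those of skeletal muscle (-0.92) and liver (-1.66) far below 0, and those of nephron progenitors (0.57) and neural cells (1.13) above it.

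Markers of other cell types moved between the same samples, and their part in the forkhead values was not tested. Over all genes tested, 0.64% passed the test. With the array as a block, 4 genes on the whole array passed (2 risen, 2 fallen), fewer than the markers that passed here. Summed signals below add the probes of a marker set within 1 channel and weigh its brightest probes most. The 8 renal stroma markers, Foxd1 among them, had a median of -0.13 (array medians -0.29 and -0.04). Their summed signal in Tbx2-GOF was 429271 against 446852 in control on array 1 and 461358 against 423098 on array 2. The 6 ureteric mesenchyme markers had a median of -0.15 (-0.27 and -0.07) and sums of 122891 against 135760 and 121749 against 114728. Both sums turned direction between arrays. Of 11 markers of nephron progenitors, which adjoin the FOXD1-positive stroma in the kidney, 4 rose (Six2 by 1.85, Gdnf by 1.53, Uncx by 1.35 and Pax8 by 0.95) and 0 fell. Of the 11 means 9 were above 0, though Eya1 (0.04) and Wt1 (0.09) only slightly. The 2 below 0, Crym (-0.50) and Sall1 (-0.46), were lower on both arrays. The median of these markers was 0.57 (array medians 0.82 and 0.33). Their summed signal was 55553 against 45225 in control on array 1 and 53878 against 48259 on array 2. Of 6 liver markers 5 fell, with a median of -1.66 and a summed signal of 873 against 3379 and 931 against 4496. Of 10 skeletal muscle markers 4 fell (array medians -1.33 and -0.62), and they had a summed signal of 23282 against 61781 and 50440 against 71547; Myf5 did not pass the filter. Of 9 neuronal and Schwann precursor markers 2 rose, with a median of 1.13 (array medians 0.54 and 1.75) and a summed signal of 85278 against 53261 and 93232 against 34436. Endothelial markers, of interest because FOXC factors also act in vessels, had a median of 0.25 (0.39 and 0.13) with 0 of 9 past the test. The 5 lymphatic ones had a median of 0.22 (0.54 and 0.14) with 0 past it, while their summed signal was lower in Tbx2-GOF on both arrays, 7279 against 7979 and 6827 against 9617. Smooth muscle (median 0.02, on the arrays 0.04 and -0.01), mesothelium (-0.03) and macrophage markers (0.12, on the arrays 0.29 and -0.04) had 0 members past the test, as had gut mesenchyme (0.38, 3 genes, since Barx1 did not pass the filter), cartilage (0.01, on the arrays -0.23 and 0.01) and erythroid markers (-0.24). The urothelium had 1 of 12 fall, Upk3a (-0.86), with a median of 0.04 (0.10 and -0.03 on the arrays). Upk3a was at least 1.5-fold lower on both arrays, and 2 urothelial markers were that much higher. These were Upk2 (0.84, adjusted p by limma 0.0715) and Gata3 (0.73, 0.0728), neither past the test. Among 6 gonad and adrenal markers Akr1b7 rose (3.27), Lhx9 fell (-0.91) and 4 did not pass, with a median of -0.05. Their summed signal was 9288 in Tbx2-GOF against 1664 in control on array 1 and 7771 against 2076 on array 2.

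**Figure D5:**
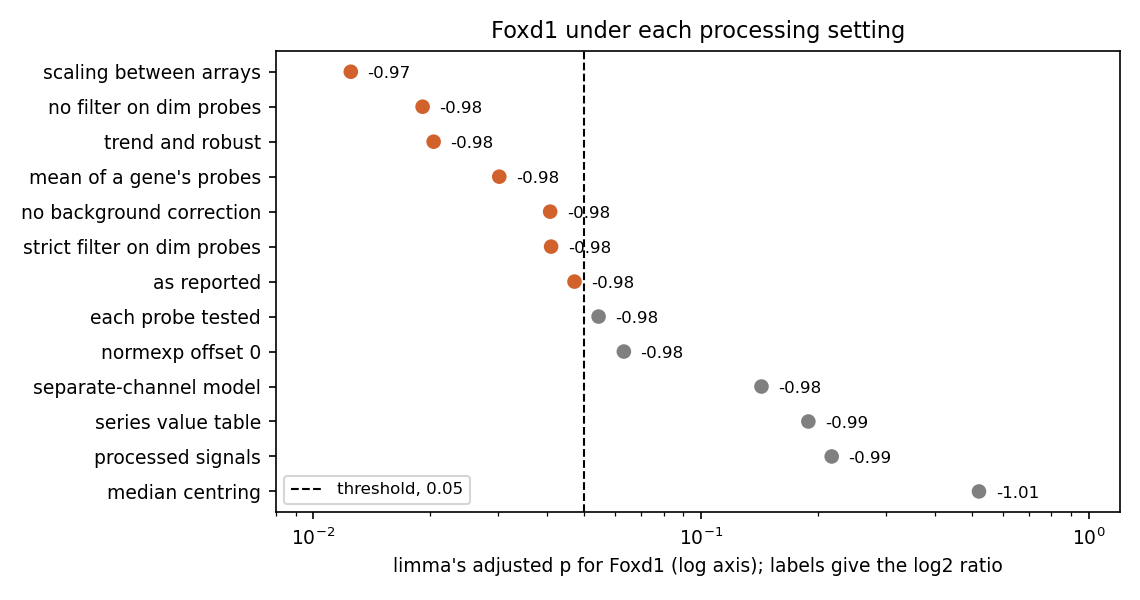
Adjusted p of Foxd1 by limma (log axis) as reported and under 12 other treatments of the same data, with the log2 ratio written beside each point, orange for values below the threshold of 0.05 (dashed line). The ratio stays between -1.01 and -0.97, in part because several treatments reuse the same ratios. The adjusted p runs from 0.0125 with scaling between arrays to 0.520 with median centring.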

How the data were processed

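Arrays were read out by Agilent's Feature Extraction, which the submitters' processing notes give as version 10.7.3.1. Their spot and background values are intensity values as scanned, per the file headers. Also deposited are processed intensity values, which the software background-subtracted and dye-normalized, and its log10 ratio (red over green). The deposited series table holds signed fold ratios of unstated scale, centring and direction. Positive values were taken as Tbx2-GOF over control, since 99.2% of 25334 bright probes on each array lay within 0.01 (log10) of the software's log ratio turned by dye.

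Log2 ratios were computed from the deposited intensity values in R 4.3.3 (limma 3.58.1) by normexp with an offset of 50, loess (span 0.3) within arrays, ratios turned by the labelled dyes. Control spots (1377) and flagged spots (209 and 391) were left out. Probes with at least 1 genotype well above background on array 1 and array 2 alike were kept (26471; 12958 were left out). The brightest kept probe stood for a gene. Genes were tested with lmFit and eBayes (1 residual and 6.36 prior degrees of freedom), two-sided, Benjamini-Hochberg threshold 0.05; "rose" and "fell" mean past it. The precision is limited by the 2 arrays. Symbols came from RefSeq accessions (GRCm38.p6), which matched 67.0% of probes, or else from the files. Probe coordinates are the files', on mm9, from 1; exon and UTR positions were not used here. The fit was also run on simulated data with independent errors of the form limma assumes. That run does not mimic dye effects or shared RNA, and no result here rests on it.

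All forkhead probes are described. Named of each list were the genes past the test and, besides, the 2 highest and 2 lowest means; also the 5 genes nearest to Foxd1, and Tbx2 and Tbx18. Meis1, Tcf21, Ptch1, Gli1, Bmp4 and the marker genes were named after their values were seen. Forkhead genes and lists were chosen with earlier results of these data known.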

Additional observations from a re-analysis of the deposited data

How the results depend on the processing

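The fall of Foxd1 passed the test in 6 of 12 alternatives. It was at -0.98 when each probe was tested (adjusted p = 0.0544), -0.98 with normexp offset 0 (0.0632), -0.98 in the separate-channel model with the array as replicate block (0.143), -0.99 with processed signals (0.217), -0.99 in the series value table (0.189) and -1.01 with median centring (0.520). On single arrays, which allow no test, it was -1.19 and -0.77. The other 7 genes kept their sign and stayed short of the threshold in these alternatives. Each array holds both genotypes, so every ratio is already paired; the replicate block model called 4 genes (2 risen, 2 fallen). The series value table, processed signals and median centring each called 0 genes (0 risen, 0 fallen), no filter on dim probes 276 (167 and 109), scaling between arrays 335 (212 and 123) and averaging the probes of a gene 211 (124 risen), against 135 as reported; at an unadjusted p under 0.05 limma gave 1970 genes as reported. Prior degrees of freedom were 3.59 to 3.86 in the settings with 0 to 4 calls; the cause was not tested. Of the stromal list, 0 genes were called higher in those 4 settings and with offset 0, and 2 with scaling; 0 were called lower in those 4, and 2 with scaling, no background correction, either other filter, or trend and robust estimation. Of the other forkhead genes 1, Foxd3, was called higher with scaling, no filter and the mean of probes. On single arrays the list medians ranged from -0.24 to 0.011 (stroma), -0.23 to 0.078 (other ureteric factors), -0.14 to 0.0099 (hedgehog axis) and -0.014 to 0.028 (cluster neighbours), each turning sign, and from 0.020 to 0.068 for the other forkhead genes.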
